A study of Mus musculus with 3 samples.

Results

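Transcripts of T cells, B cells, plasma cells and natural killer (NK) cells were followed in RNA-seq libraries of macrophages from 3 mouse tissues. The set held 33 genes, chosen by symbol as markers of these lymphocytes, of 20683 genes measured, and all 33 were found. The choice was made with earlier results of these data known. RNA came from cardiac tissue macrophages, hepatic Kupffer cells and renal tissue macrophages of C57BL/6 mice aged 8 weeks in the steady state, with 1 library for each tissue. Cells were sorted for the surface proteins CD11b and F4/80 and for absence of Ly6G, a neutrophil antigen, and Ly6C, found on inflammatory monocytes. The labels name no marker of T, B or NK cells in this gate, and they do not say how many animals a library holds. No treatment or allele is named, and with no replicates every comparison sets 3 single libraries side by side, without a test. For short, the libraries are also called heart, liver and kidney.

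T cells carry an antigen receptor that signals through the CD3 chains, with CD4 or CD8 as coreceptors and with CD28 and ICOS as costimulatory receptors. B cells signal through the CD79 chains of their antigen receptor, and plasma cells, which descend from them, secrete antibody whose polymers are joined by the J chain. NK cells and cytotoxic T cells kill through granzymes and perforin, and the liver is known as an organ rich in NK cells and NKT cells. NK cells can carry CD11b. Some of these genes are not confined to lymphocytes, since CD4 and the IL-7 receptor are also known from macrophages or monocytes.

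Levels are the deposited RPKM values, which divide the reads of a gene by its exon length in kilobases. They also divide by the reads counted over all transcripts of the library, in units of 1000000. Several transcripts can belong to a single gene, so these totals are not the number of reads sequenced. The reads behind them were recovered from the steps of low values and came to 14460630 in the cardiac sample, 16743420 in the Kupffer sample and 15550833 in the renal library over all transcripts. Intervals are exact 95% Poisson intervals for RPKM and exact 95% Clopper-Pearson intervals for folds. Both express counting error alone and do not cover what amplification of the RNA did to the read counts. A fold against a library with 0 reads is called a lower bound. It was computed against 3 reads in that library and leaves out the counting error of the other library. Levels that 0 reads are said to allow are likewise those of 3 reads, under the upper end of the exact interval. Macrophage genes were abundant in every library, as 12 of 12 pan-macrophage genes had RPKM of at least 1 in each. In bulk RNA, more cells of a type and more RNA per cell cannot be told apart.

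The upstream sequences of 4 members are shown because, in each of 4 roles, they are the member highest in the Kupffer cell library among those with a single start in the RefSeq promoter table (GRCm38.p6). Each is the run of 250 bases before the start, 5′ to 3′ on the strand of the gene. Capitals mark E-boxes (CANNTG), the ETS core CAGGAAG and the RUNX core TGTGGT on either strand. The T cell gene lies on the minus strand at chr9:44980432-44980681, the B cell gene on the plus strand at chr7:24897247-24897496, the joining chain gene on the minus strand at chr5:88527898-88528147 and the granzyme gene on the minus strand at chr13:113100982-113101231.
Cd3g: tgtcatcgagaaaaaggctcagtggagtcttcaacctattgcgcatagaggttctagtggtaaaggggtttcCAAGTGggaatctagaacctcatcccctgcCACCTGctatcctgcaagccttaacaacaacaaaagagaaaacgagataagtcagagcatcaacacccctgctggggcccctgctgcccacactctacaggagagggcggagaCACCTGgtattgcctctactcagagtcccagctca
Cd79a: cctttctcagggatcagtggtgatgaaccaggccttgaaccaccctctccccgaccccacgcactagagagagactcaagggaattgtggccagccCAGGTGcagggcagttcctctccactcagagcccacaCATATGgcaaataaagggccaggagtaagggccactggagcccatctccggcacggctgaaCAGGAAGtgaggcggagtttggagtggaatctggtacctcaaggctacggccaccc
Jchain: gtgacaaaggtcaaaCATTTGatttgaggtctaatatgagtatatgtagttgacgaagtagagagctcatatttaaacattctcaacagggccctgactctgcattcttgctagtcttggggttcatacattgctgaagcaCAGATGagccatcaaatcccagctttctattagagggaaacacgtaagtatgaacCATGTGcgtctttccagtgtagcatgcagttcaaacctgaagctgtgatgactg
Gzma: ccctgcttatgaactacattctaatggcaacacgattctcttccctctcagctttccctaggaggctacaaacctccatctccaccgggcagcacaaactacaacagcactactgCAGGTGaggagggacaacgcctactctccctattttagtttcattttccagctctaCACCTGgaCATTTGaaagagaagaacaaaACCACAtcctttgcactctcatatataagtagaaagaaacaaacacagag

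Each of these windows held E-boxes, 3 in Cd3g, 2 in Cd79a, 3 in Jchain and 3 in Gzma. E-boxes stood in 66.2% of all 32851 windows of this length. The Cd79a window also held the ETS core, from -56 to -50 before the start, and the Gzma window held the RUNX core on the minus strand (ACCACA), from -50 to -45. Promoter entries were found for 24 of the 33 members. The ETS core stood in a window of 9 of these 24, against 12.1% of all genes in the table, and the RUNX core in 10 of 24, against 15.9%. The octamer ATGCAAAT was found in 0 of 24 (1.81% of all genes), the EBF core CCCNNGGG in 2 of 24 (13.4%), the TATA box TATAAA in 1 of 24 (14.3%), the CRE TGACGTCA in 1 of 24 (1.77%) and the T-box motif AGGTGTGA in 1 of 24 (1.295%). Motifs were searched on both strands, and a match describes the letters of the window and no binding.

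The liver library held the most reads of these genes and the kidney library the fewest genes with any read. Members with at least 1 read numbered 18 in the cardiac sample, 21 in the Kupffer sample and 10 in the renal library, and 13, 20 and 8 had 10 or more. No share of all genes was computed at the mark of 10 reads, here or for the further lists below. Counts at this mark are therefore description only. RPKM of at least 1 was reached by 10, 17 and 4 of the 33 members and by 8544, 8756 and 9336 of all 20683 genes. Of the 33 members, 23 had 0 reads in the renal library, where 40.5% of all genes had none. In the heart library 15 had 0 reads (40.5% of all genes) and in the Kupffer cell library 12 (45.4% of all genes). Reads in the Kupffer cell library alone were found for 7 members, Cd3d, Cd3e, Cd3g, Cd8b1, Icos, Blk and Jchain, while 2.16% of all genes had this pattern. Another 7 members, Cd8a, Cd2, Fcer2a, Gzma, Gzmb, Nkg7 and Il2rb, had reads in the cardiac and the Kupffer cell library but not in the renal one, a pattern of 1.67% of all genes. Members took 0.0182% of the reads in the cardiac sample, 0.136% in the Kupffer sample and 0.0447% in the renal library, with 1 transcript kept per gene. In the renal library Cd79b alone held 3189 of the 4166 member reads. All members summed to 74.7, 491.8 and 193.2 RPKM in the cardiac, Kupffer cell and renal library. Without Cd79b the sums were 41.8, 321.5 and 25.5 RPKM, so the order of heart and kidney rested on this gene.

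Libraries were compared as log2(RPKM + 1), and a gene was called higher or lower from a difference of 2 log2 units upward. This is 4-fold in RPKM + 1 and more than 4-fold in RPKM, so low genes can differ widely and stay uncalled. Cd28, at 1.43 RPKM in the cardiac sample and 0 in the Kupffer sample, was not called. On this measure 11 of 33 members were higher in the Kupffer sample than in the cardiac library, where 3.72% of all genes were, and 0 were higher in the cardiac sample, where 2.67% of all genes were. Against the kidney library 12 of 33 were higher in the Kupffer sample (2.64% of all genes) and 0 were higher in the renal sample (3.83% of all genes). Between heart and kidney 3 of 33 were higher in the cardiac sample (1.18% of all genes) and 1 was higher in the renal sample (2.64% of all genes). A level of 1 RPKM or more in some library was reached by 10719 genes, of which 19 are members. Among these genes the shares were 7.18% and 5.16% for liver above heart and heart above liver, 5.1% and 7.4% for liver above kidney and kidney above liver, and 2.29% and 5.09% for heart above kidney and kidney above heart. The 10 members Cd3e, Cd3g, Cd8b1, Icos, Cd79a, Fcer2a, Blk, Jchain, Gzmb and Nkg7 were higher in the Kupffer sample than in both others, where 1.67% of all genes were. Cd2 and Gzma were lower in the renal sample than in both others (0.367% of all genes), and Cd79b was lower in the cardiac sample than in both others (0.672% of all genes). Over all 33 members the median of heart minus liver and that of kidney minus liver were each -0.44 log2 units and that of heart minus kidney was 0, while all genes had a median of 0 in each comparison. The counts of 0 above depend on the 1 added to RPKM. With 0.1 added instead, 4 members were higher in the cardiac than in the Kupffer sample, and 2 in the renal than in the Kupffer sample.

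**Figure D1:**
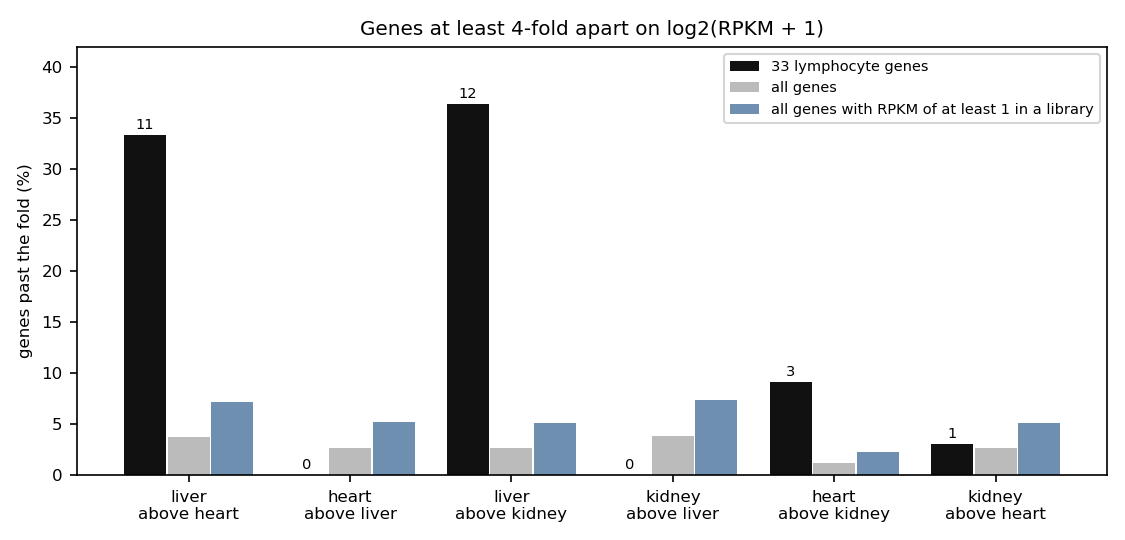
Percent of genes at least 4-fold apart on log2(RPKM + 1) in each comparison of 2 libraries, for the 33 lymphocyte genes (black, number above the bar), all genes (grey) and all genes with RPKM of at least 1 in a library (blue). The black bars stand at 11 and 12 genes for liver above heart and liver above kidney, and at 0 for the opposite directions.

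**Figure D2:**
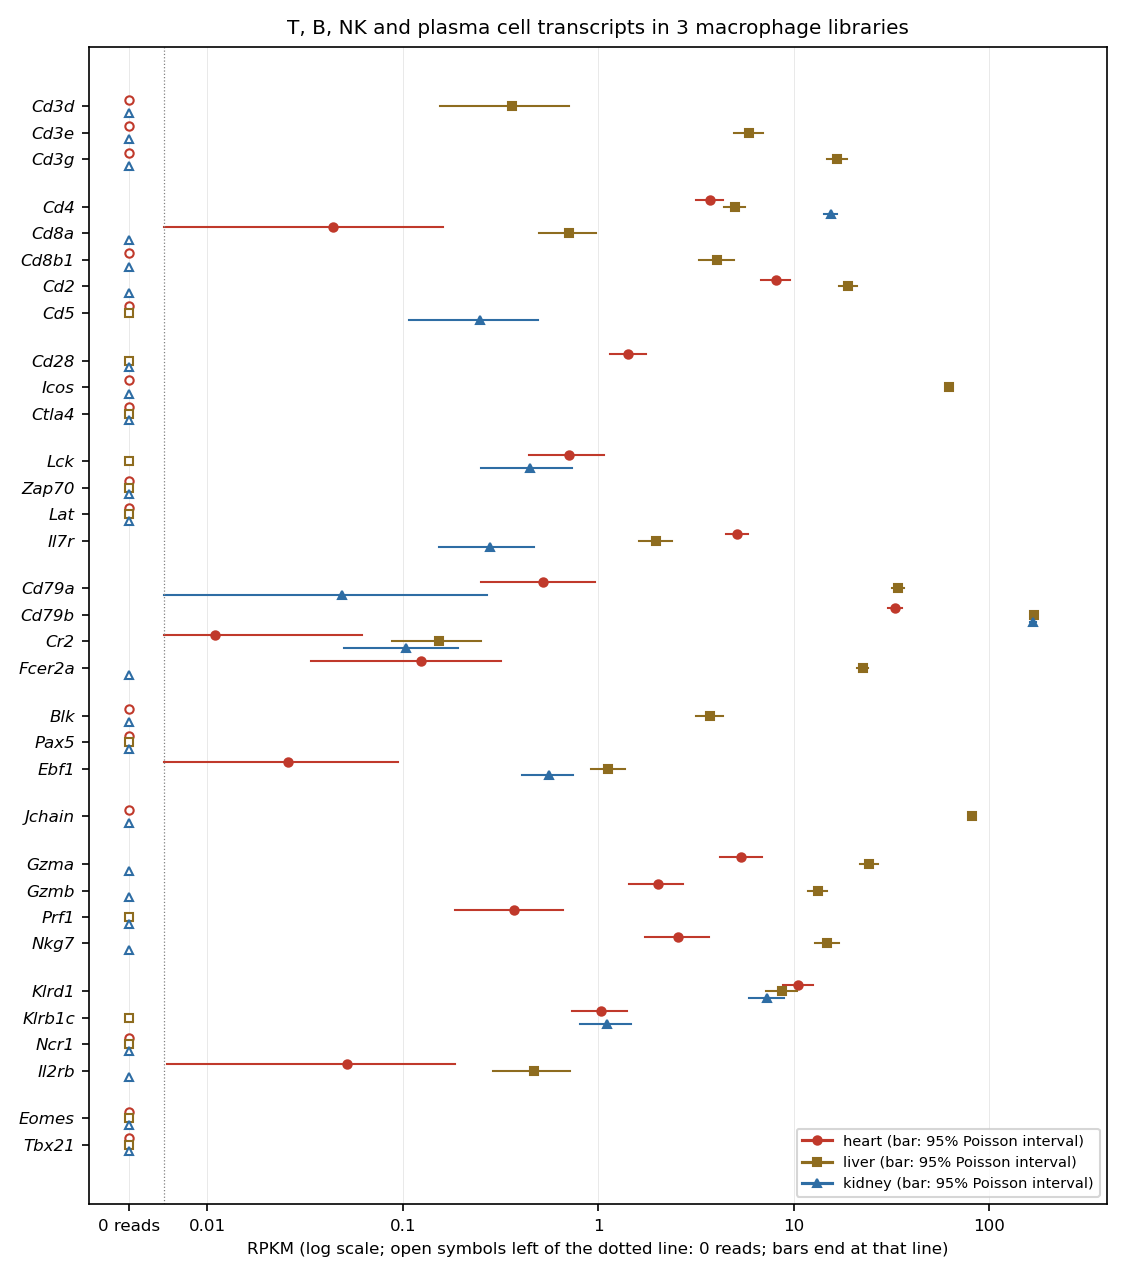
RPKM of each of the 33 lymphocyte genes (rows, grouped by role) for the heart (circles), liver (squares) and kidney library (triangles), on a log axis, with exact 95% Poisson intervals and open symbols at the left for 0 reads. Cd3 genes, Icos, Blk and Jchain have filled symbols for the liver library only, while Cd79b, Cd4 and Klrd1 have filled symbols for all 3.

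Cd3g, Cd3e and Cd3d were read only in the Kupffer cell library, at unequal levels. They encode the CD3 gamma, epsilon and delta chains, which assemble with the antigen receptor. Cd3g stood at 0 RPKM in the cardiac sample, 16.7 in the Kupffer sample (14.8 to 18.8, 284 reads) and 0 in the renal library. Cd3e stood at 0, 5.9 (4.97 to 6.96, 141 reads) and 0 RPKM in the same order, and Cd3d at 0, 0.361 (0.156 to 0.712, 8 reads) and 0. Cd3g was at least 81.8-fold higher in the Kupffer sample than in the cardiac sample and at least 87.9-fold higher than in the renal library, and Cd3e at least 40.6-fold and 43.6-fold. With a pseudocount of 5 the Cd3e difference to each of these libraries was 1.12 log2 units in size and no longer called. Per length, Cd3g was 2.83-fold (2.31 to 3.49) above Cd3e and 46.3-fold (23.2 to 108) above Cd3d within the Kupffer cell library. The 3 genes are neighbours on mm10 chromosome 9, with Cd3g from 44969572 to 44980431, and a gap of 1355 bp separates Cd3g from Cd3d. The 0 reads of Cd3g allow up to 0.205 RPKM in the cardiac sample and 0.19 in the renal library. Cd3e shares 3.31% of its exon bases with the annotated gene Gm48719, and reads were counted on both strands.

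Of the coreceptors, both CD8 chains were highest in the Kupffer cell library and Cd4 was not. Cd8b1, which encodes the CD8 beta chain, stood at 0, 4.03 (3.26 to 4.93, 95 reads) and 0 RPKM in the cardiac, Kupffer cell and renal library, at least 27.4-fold above the heart and 29.4-fold above the kidney. Its calls were lost with a pseudocount of 5, where heart minus liver was -0.85 log2 units. Cd8a, the CD8 alpha chain, stood at 0.044 (2 reads), 0.708 (37 reads) and 0 RPKM. The liver level of Cd8a was 16-fold that of the heart (4.12 to 137), and it did not reach the 4-fold mark on log2(RPKM + 1). Cd4 stood at 3.72 RPKM in the cardiac sample (3.18 to 4.33, 166 reads), 5 in the Kupffer sample (4.41 to 5.65, 258 reads) and 15.5 in the renal library (14.4 to 16.6, 741 reads). Its highest level was in the renal library, 4.15-fold (3.5 to 4.94) above the heart and 3.09-fold (2.68 to 3.58) above the liver. In that library the CD3 genes and both CD8 genes had 0 reads.

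The adhesion receptor Cd2, which T and NK cells use to bind CD48 in mice, was read in 2 libraries. Cd2 stood at 8.09 RPKM in the cardiac sample (6.77 to 9.59, 133 reads), 19 in the Kupffer sample (17.1 to 21.02, 361 reads) and 0 in the renal library. It was 2.34-fold (1.92 to 2.88) higher in the Kupffer sample than in the cardiac sample and at least 47.7-fold higher in the cardiac sample than in the renal sample. The call for Cd2 between heart and kidney was lost with a pseudocount of 5, at 1.39 log2 units. Cd5, a negative regulator of receptor signalling, had 0, 0 and 8 reads, so 0.25 RPKM in the renal library.

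The costimulatory receptors Cd28, Ctla4 and Icos lie in a row on mm10 chromosome 1 and gave 3 different patterns. Icos stood at 62.6 RPKM in the Kupffer cell library (60.5 to 64.7, 3402 reads) with 0 reads in both others, at least 979-fold above the heart and 1053-fold above the kidney. Icos lies from 60977914 to 61000321 and ranked 1269 among all genes in the Kupffer cell library. Cd28 stood at 1.43 RPKM in the cardiac sample (1.15 to 1.76, 89 reads), with 0 reads in the Kupffer cell and renal library, which allow up to 0.0416 and 0.0447 RPKM. Ctla4, the inhibitory receptor of the family, had 0 reads in all 3. Within the Kupffer cell library Icos was 3.74-fold (3.31 to 4.24) above Cd3g and 10.6-fold (8.95 to 12.6) above Cd3e per length. Icos and Cd28 were therefore not read in the same library, and Icos exceeded each of the CD3 genes.

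The receptor signalling genes Lck, Zap70 and Lat had 0 reads in the Kupffer cell library, where Cd3g, Cd3e and Cd3d were read. Lck, the kinase that starts receptor signalling, stood at 0.705 RPKM in the cardiac sample (22 reads), 0 in the Kupffer sample and 0.447 in the renal library (15 reads). Zap70, the kinase recruited to the CD3 chains, and Lat, the adaptor it phosphorylates, had 0 reads in all libraries. The 0 reads of the liver library allow up to 0.0831 RPKM of Lck, 0.0788 of Zap70 and 0.147 of Lat. Il7r, the IL-7 receptor alpha chain, stood at 5.14 RPKM in the cardiac sample (238 reads), 1.98 in the Kupffer sample (106 reads) and 0.281 in the renal library (14 reads). It was highest in the cardiac sample, 2.6-fold (2.06 to 3.3) above the liver and 18.3-fold (10.7 to 33.9) above the kidney, a call lost with a pseudocount of 5, at 0.94 log2 units. Together the 15 T cell members summed to 19.1, 116 and 16.4 RPKM, and to 19.1, 53.7 and 16.4 without Icos.

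A further list of 20 T cell genes was led by the liver library, with exceptions. The further lists, too, were chosen with earlier results of these data known and are no independent check. Of these, 4 had 10 or more reads in the cardiac library, 10 in the Kupffer cell library and 6 in the renal library. Of the 20, 3 were higher in the Kupffer sample than in the cardiac sample (3.72% of all genes) and 3 higher than in the renal sample (2.64% of all genes). In the opposite directions 0 were higher in the cardiac sample (2.67% of all genes) and 1 was higher in the renal sample (3.83% of all genes). Il2ra, the IL-2 receptor alpha chain, stood at 2.5, 0 and 11.3 RPKM, Ccr7, a homing receptor, at 9.2, 9.31 and 3.66, and Cxcr6, a chemokine receptor known from liver NKT cells, at 0, 5.75 and 0. Other genes linked to the T cell receptor were read in the Kupffer cell library and are named after their values were seen. Cd247, the CD3 zeta chain, stood at 0.198 (8 reads), 0.77 (36 reads) and 1.5 RPKM (65 reads), highest in the kidney library. The adaptor genes Skap1 and Sh2d2a stood at 0.35, 1.87 and 1.27 and at 0.073, 4.7 and 0 RPKM, and Sh2d1a, the adaptor SAP, at 0, 5.21 and 0. Trat1, Ubash3a, Themis, Bcl11b and Thy1, all known from T cells, had 0 reads in every library.

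Of the B cell receptor chains, Cd79b was abundant in all libraries and Cd79a was almost confined to the liver library. Cd79b, which encodes CD79 beta, stood at 32.9 RPKM in the cardiac sample (30.2 to 35.6, 581 reads), 170 in the Kupffer sample (165 to 176, 3488 reads) and 168 in the renal library (162 to 174, 3189 reads). It was 5.18-fold (4.75 to 5.67) lower in the cardiac sample than in the Kupffer sample and 5.1-fold (4.67 to 5.58) lower than in the renal library. The liver and kidney levels differed by less than counting error, at 1.02-fold (0.968 to 1.07), and which was higher depended on the scaling. Cd79a, which encodes CD79 alpha, stood at 0.524 (0.251 to 0.963, 10 reads), 34.1 (31.7 to 36.6, 754 reads) and 0.049 RPKM (1 read). It was 65.1-fold (35.2 to 136) higher in the Kupffer sample than in the cardiac sample, and 700-fold higher than in the renal library (125 to 27696). Cd79b exceeded Cd79a per length 4.99-fold (4.61 to 5.41) in the Kupffer sample, 62.7-fold (33.8 to 132) in the cardiac sample and 3442-fold (617 to 135991) in the renal library. The 2 chains of the receptor thus kept no common ratio across libraries. Cd79b had 2.85 reads per bp of exon in the Kupffer sample and 2.61 in the renal library, the only member above 2. Cd79a lies on mm10 chromosome 7 from 24897511 to 24902197 and Cd79b on chromosome 11 from 106311341 to 106314562.

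The other B cell members that had reads were highest in the Kupffer cell library. Fcer2a, the low-affinity IgE receptor CD23 of mature B cells, stood at 0.124 (4 reads), 22.5 (21 to 24.1, 839 reads) and 0 RPKM in the cardiac, Kupffer cell and renal library. It was 181-fold (70.5 to 666) higher in the Kupffer sample than in the cardiac sample, and its 7 transcripts ranged from 21.6 to 22.5 RPKM in the Kupffer cell library. Blk, a Src-family kinase of B cells, stood at 0, 3.71 (3.15 to 4.35, 153 reads) and 0 RPKM, at least 44-fold above the heart and 47.4-fold above the kidney. Its calls were lost with a pseudocount of 5, where heart minus liver was -0.80 log2 units. Ebf1, a transcription factor of the B lineage also known from stromal cells, stood at 0.026 (2 reads), 1.13 (100 reads) and 0.558 RPKM (46 reads). Cr2, the complement receptor CD21 of B cells, had 1, 16 and 10 reads, at 0.011, 0.154 and 0.104 RPKM. Pax5, the transcription factor that maintains B cell identity, had 0 reads in all 3, which allow up to 0.1735, 0.15 and 0.161 RPKM. The 7 B cell members summed to 33.5, 232 and 168 RPKM, and without Cd79b to 0.685, 61.6 and 0.711. Without Cd79b the heart and kidney sums were thus close, but different genes carried them, mostly Cd79a at 0.524 RPKM in the heart and Ebf1 at 0.558 RPKM in the kidney library.

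Jchain, which encodes the antibody joining chain, gave the highest level among members read in a single library. It stood at 82 RPKM in the Kupffer cell library (79 to 85, 2876 reads), with 0 reads in the cardiac and renal library, which allow up to 0.099 and 0.092 RPKM. Its lower bounds were 828-fold over the heart and 890-fold over the kidney, and its rank was 1039 among all genes of the liver library. It lies on mm10 chromosome 5 from 88519809 to 88527897.

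Among 19 further B cell genes found of 20 listed, some were abundant in all libraries and others were read mainly in the Kupffer cell library. Of these, 12 had 10 or more reads in the cardiac library, 16 in the Kupffer cell library and 9 in the renal library, and their levels summed to 294, 648 and 591 RPKM. Of the 19, 5 were higher in the Kupffer sample than in the cardiac sample (3.72% of all genes) and 6 higher than in the renal sample (2.64% of all genes). Against the Kupffer sample 0 were higher in the cardiac sample (2.67% of all genes) and 1 was higher in the renal sample (3.83% of all genes). The 3 most abundant were read in all libraries, Cd72, an inhibitory coreceptor, at 122, 323 and 387 RPKM, Bank1, an adaptor, at 71, 151 and 18.6, and Blnk, another adaptor, at 73.9, 18.4 and 128. Of 10 further plasma cell genes 6, 6 and 7 had 10 or more reads in the cardiac, Kupffer cell and renal library, and their sums of 88.4, 60.5 and 46.4 RPKM were highest in the cardiac one. Of these genes 2 were higher in the Kupffer sample than in the cardiac sample (3.72% of all genes) and 1 was higher than in the renal sample (2.64% of all genes). Against the Kupffer sample 1 was higher in the cardiac sample (2.67% of all genes). The most abundant were Xbp1, a factor of the secretory program expressed in many cells, at 50.3, 27.2 and 23.4 RPKM, Txndc5, an endoplasmic reticulum protein, at 2.47, 18.7 and 6.94, and Tnfrsf17, the receptor BCMA, at 16.7, 4.81 and 7.01. The medians of this list were close, at 1.57, 1.54 and 1.47 RPKM. Named after their values were seen, Mzb1 stood at 0, 6.7 (101 reads) and 0 RPKM and Sdc1 at 0.272, 1.29 and 0, both highest in the Kupffer cell library. Prdm1, at 15.5, 1.79 and 5.22 RPKM, was lowest there, and so was Irf4, at 2.38, 0.013 and 1.73. Derl3 at 0, 0 and 1.21, Eaf2 at 0.037, 0 and 0.924 and Fkbp11 at 0.76, 0 and 0 RPKM had 0 reads in the Kupffer cell library. These genes, too, are named after their values were seen, and the list thus had no common order.

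**Figure D3:**
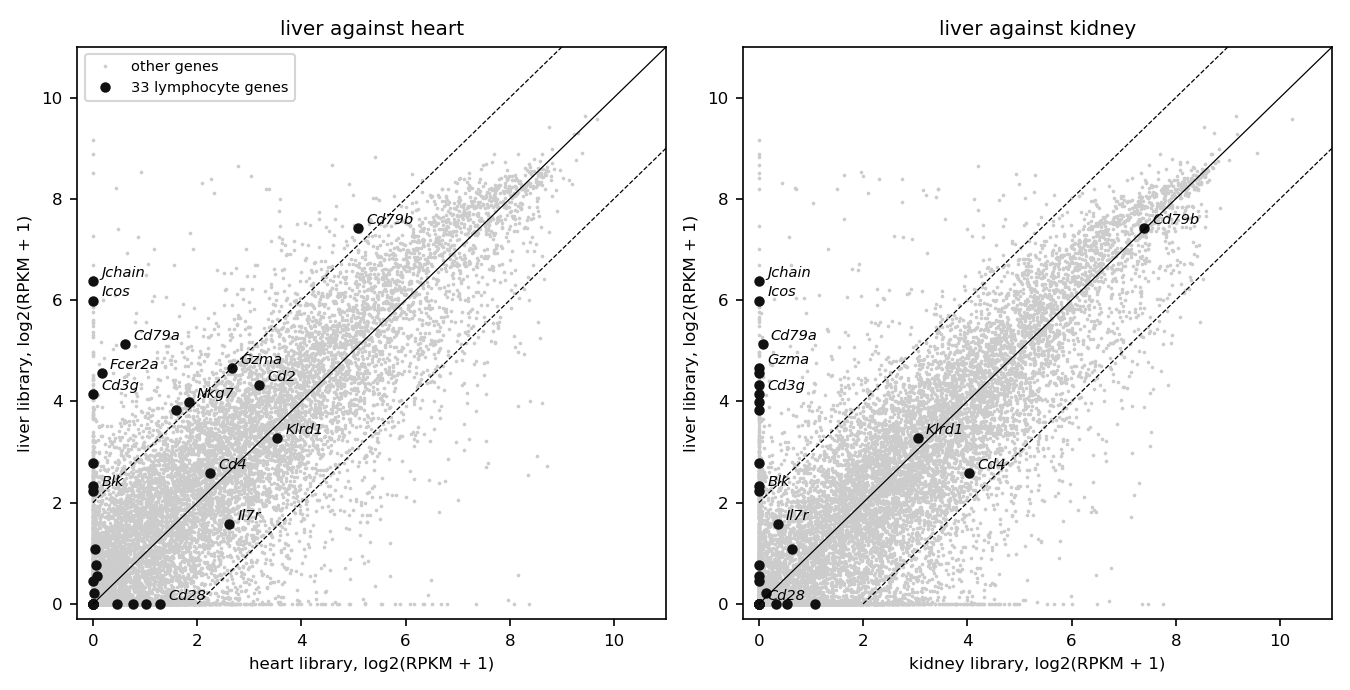
Levels of all genes (grey) and of the 33 lymphocyte genes (black) as log2(RPKM + 1) in the Kupffer cell library (y axes) against the heart (left) and kidney library (right). The solid line marks equal levels and the dashed lines 2 log2 units. Jchain and Icos lie on the y axis at 0 in the other library, while Cd79b lies near the solid line for the kidney library and above the upper dashed line for the heart library.

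The granule genes Gzma, Gzmb and Nkg7 shared 1 order, liver above heart above kidney. Gzma, which encodes granzyme A, stood at 5.4 RPKM in the cardiac sample (4.19 to 6.84, 68 reads), 24.3 in the Kupffer sample (21.9 to 27, 355 reads) and 0 in the renal library. Gzmb, granzyme B, stood at 2.01 (41 reads), 13.3 (314 reads) and 0 RPKM, and Nkg7, a granule membrane protein, at 2.57 (30 reads), 14.9 (201 reads) and 0. From heart to liver the folds were 4.51 (3.47 to 5.93) for Gzma, 6.61 (4.77 to 9.4) for Gzmb and 5.79 (3.93 to 8.8) for Nkg7, with intervals that overlap. Against the kidney library the liver was at least 110-fold, 97.2-fold and 62.2-fold higher, and the heart at least 24.4-fold, 14.7-fold and 10.8-fold. Per length, Gzma was 1.83-fold (1.57 to 2.14) above Gzmb in the Kupffer sample and 2.68-fold (1.79 to 4.05) in the cardiac library. Prf1, which encodes the pore protein perforin, went against this order. It had 11 reads in the cardiac library, 0.371 RPKM, and 0 in both others, which allow up to 0.08745 RPKM in the Kupffer sample. The call for Nkg7 between heart and liver was lost with median ratio scaling, where the difference was -1.95 log2 units. With a pseudocount of 5 it was -1.39 for Nkg7 and -1.38 for Gzmb, and both lost this call. Their calls between kidney and liver were lost as well, at -1.99 and -1.87, and so was that of Gzma between heart and kidney, at 1.06.

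The NK receptors Klrd1 and Klrb1c did not follow the granule genes. Klrd1, which encodes CD94, was read in all libraries, at 10.6 RPKM in the cardiac sample (8.83 to 12.5, 131 reads), 8.7 in the Kupffer sample (7.24 to 10.4, 125 reads) and 7.27 in the renal library (5.89 to 8.87, 97 reads). Its levels were close, at 1.21-fold for heart over liver (0.942 to 1.56) and 1.2-fold for liver over kidney (0.911 to 1.58), so these neighbours did not differ beyond counting error, while heart over kidney was 1.45-fold (1.11 to 1.91). Klrb1c, the NK1.1 antigen of C57BL/6 mice, stood at 1.03 RPKM in the cardiac sample (39 reads), 0 in the Kupffer sample and 1.1 in the renal library (45 reads). Its liver level was below that of both others, at least 15.1-fold under the heart and 16.2-fold under the kidney. Klrb1c shares 13.9% of its exon bases with the annotated gene Gm44511, and reads on these shared bases cannot be assigned to either gene. Il2rb, the IL-2 and IL-15 receptor beta chain, had 2, 21 and 0 reads, at 0.052, 0.467 and 0 RPKM. Ncr1, the receptor NKp46 that marks NK cells, had 0 reads in every library.

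The T-box factors Eomes and Tbx21, which direct NK and cytotoxic T cell development, had 0 reads in every library as well. These 0 reads allow up to 0.0483 RPKM of Eomes and 0.0704 of Tbx21 in the Kupffer cell library, where Gzma stood at 24.3 RPKM. In all, 7 of 33 members had 0 reads everywhere, namely Ctla4, Zap70, Lat, Pax5, Ncr1, Eomes and Tbx21, and 33% of all genes had none. The 10 NK and cytotoxic members summed to 22, 61.7 and 8.37 RPKM in the cardiac, Kupffer cell and renal library.

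Of 20 further NK and cytotoxic genes 11, 10 and 6 had 10 or more reads in the cardiac, Kupffer cell and renal library, with a median difference of 0 for heart minus liver. Of these genes 4 were higher in the Kupffer sample than in the cardiac sample (3.72% of all genes) and 4 higher than in the renal sample (2.64% of all genes). Against the Kupffer sample 0 were higher in the cardiac sample (2.67% of all genes) and 2 in the renal sample (3.83% of all genes). Ccl5, a chemokine of cytotoxic cells also made by macrophages, stood at 181, 125 and 113 RPKM. Sh2d1b1, an adaptor of SLAM family receptors, stood at 18, 9.25 and 90 RPKM. Klrk1, the receptor NKG2D, stood at 5.83, 68.6 and 6.17 RPKM, 11.8-fold (10.4 to 13.3) higher in the Kupffer sample than in the cardiac sample and 11.1-fold (9.9 to 12.5) higher than in the renal library. Genes of this list differed in order, and those that follow are named after their values were seen. Klrc1, the NKG2A partner of CD94, stood at 0, 22 and 0 RPKM, Xcl1 at 0, 16.1 and 0 and Cd7 at 2.41, 14.9 and 0. Cd226 at 7.76, 1.28 and 0.234 and Il12rb2 at 1.3, 0 and 0 RPKM were highest in the cardiac library. Klre1 at 1.45, 0 and 0.285, Il18rap at 0.411, 0.135 and 3.64 and Cd160 at 0.348, 0 and 0.324 RPKM were lowest in the Kupffer cell library. Ifng, Fasl, Gzmk, Klra4 and Txk had 0 reads in every library.

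**Figure D4:**
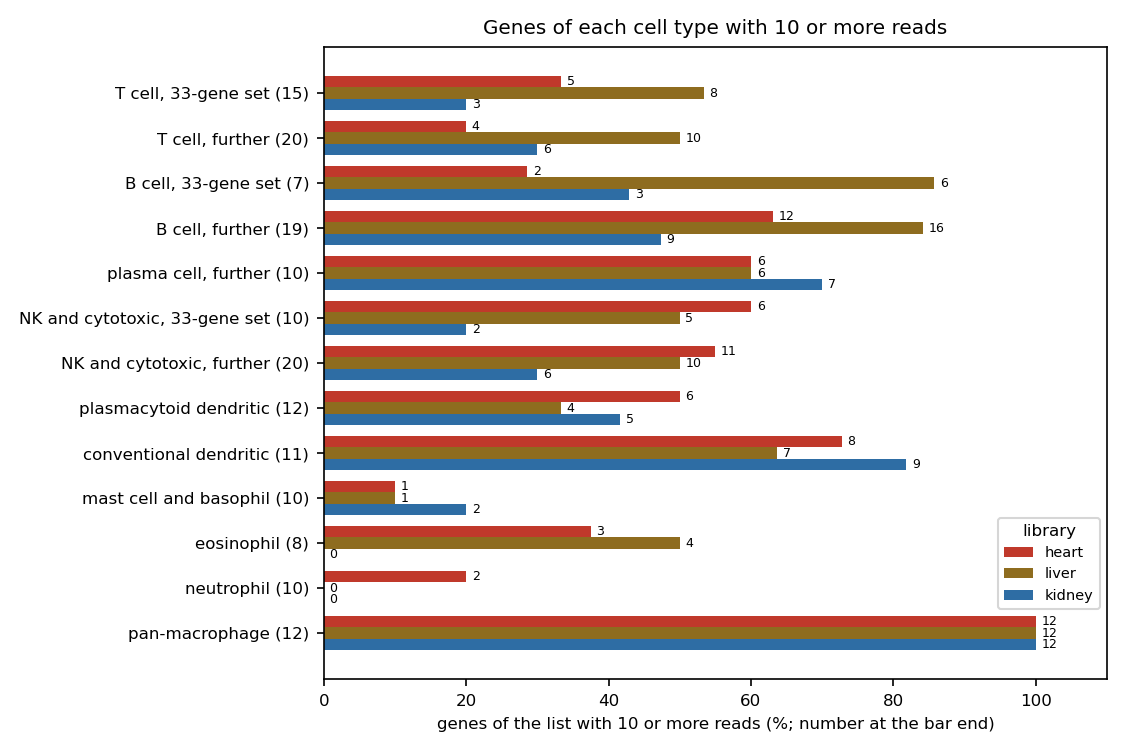
Percent of the genes of each list with 10 or more reads in the cardiac, Kupffer cell and renal library, with the number of genes at the end of each bar and the size of the list in parentheses. No share of all genes was computed at this mark. The liver library has the longest bar for the T and B cell lists, with 8 of 15 T cell members and 6 of 7 B cell members, whereas for the NK and cytotoxic members the heart library leads with 6 of 10.

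Genes of other cells were placed beside these values. Of 10 hepatocyte genes, 6 were higher in the Kupffer sample than in the cardiac sample (3.72% of all genes) and 7 higher than in the renal library (2.64% of all genes). Their sums were 390, 628 and 384 RPKM in the cardiac, Kupffer cell and renal library. Serpina1b stood at 0, 81 and 0 RPKM and Alb, which encodes albumin, at 0, 64.3 and 0.22. Trf, a transferrin gene that macrophages also express, made up most of the cardiac and renal sums, at 388, 384 and 382 RPKM. Of 10 endothelial genes, 6 were higher in the Kupffer sample than in the cardiac one (3.72% of all genes). Another 6, not all of them the same genes, were higher than in the renal one (2.64% of all genes). The sums of 7.52, 294 and 9.75 RPKM were led by Clec4g at 1.24, 129 and 0 RPKM and Stab2 at 0, 57.5 and 0. Eosinophil genes were highest in the Kupffer cell library too, with sums of 16.1, 102 and 0.765 RPKM, as Ear1 stood at 12.3, 64.5 and 0.635 and Ccr3 at 2.71, 33.2 and 0.039, while Prg2, Epx, Il5ra and Cebpe had 0 reads in all 3. The part of these cells in the lymphocyte values was not tested. The mast cell and basophil list was near 0, with 8 of 10 genes at 0 reads in every library and sums of 0.268, 1.73 and 1.93 RPKM. Neutrophil genes summed to 6.74, 0.065 and 0.282 RPKM, the highest in the cardiac library. Plasmacytoid dendritic cell genes, in a list of 12, summed to 56.7, 29.5 and 175 RPKM, and the kidney sum rested on Klk1 at 140 RPKM, which is also known from kidney tubules. The conventional dendritic cell list, with 11 genes found, summed to 470, 103 and 204 RPKM, led by Cd209a at 270, 0 and 10.9. Its medians of 2.23, 1.48 and 7.24 RPKM were highest in the renal library. Genes of this list differed in order. Clec9a at 0.126, 1.29 and 7.24, Xcr1 at 1.07, 1.62 and 3.11 and Batf3 at 1.37, 10.6 and 12.2 RPKM were lowest in the heart. Zbtb46 at 2.23, 0 and 0.15 was highest there, and these 4 are named after their values were seen. By its sum, neither dendritic cell list was highest in the Kupffer cell library.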

How the data were processed

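Total RNA of sorted macrophages was amplified with a kit for low input before Illumina libraries were made, per the labels' protocols. CASAVA, STAR and mm10 are named in the submitters' processing notes, with no versions given. The deposited values are RPKM for 34711 RefSeq transcripts, made by the authors with HOMER's analyzeRepeats.pl over exons on both strands, scaled to 1000000 reads, with the option -pc 3, per the file headers. What this option did to the reads is not given in the sources used here, so its effect on genes dense in reads, such as Cd79b, is not known. Columns are named FPKM there, while the command asks for RPKM. Exon length in bases was deposited beside them.

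For each symbol the longest NM_ transcript was kept, 20683 genes, and 27 of the 33 members share no exon base with another gene in GENCODE M21 (GRCm38). Reads were recovered from RPKM times length, and every low value checked (500 reads or fewer) was whole to within 0.1 (15236, 12075 and 14159 values). One read on 2000 bp was worth 0.0346, 0.0299 and 0.0322 RPKM in the cardiac, Kupffer cell and renal library. Differences used log2(RPKM + 1). With 1 library per tissue there was no test. Folds in the text are ratios without a pseudocount. Recovery and calls were tested on simulated data, with changes well above the 4-fold mark made in well-expressed genes only. That setting does not cover calls of members at low levels or near the mark. Alternatives were pseudocounts of 0.1 and 5, TPM and median ratio scaling, another transcript, a filter at RPKM of 1 and read ratios, and, chosen after seeing the data, members of at most 2 reads per bp.

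The members and lists were chosen with earlier results of these data known, and the hepatocyte and endothelial lists were added after the data were seen. All members are named, and of each further list up to 3 genes with the highest RPKM in a library, with defining genes at 0 reads. Other genes of these lists are marked as named after their values were seen. Lists of group 2 innate lymphoid cells, platelets, sort genes and all leukocytes gave sums of 91, 0.75 and 9.975, of 420, 249 and 222, of 542, 421 and 452.5 and of 1422, 1455 and 1651 RPKM. Python 3.11.15, pandas 2.3.3 and SciPy 1.17.1 were used.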

Additional observations from a re-analysis of the deposited data

How the results depend on the processing

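Each direction of a called member was kept in all alternatives run. The counts of 11 members higher in the liver than in the heart and 12 than in the kidney library were 15 and 16 with a pseudocount of 0.1, 6 and 7 with a pseudocount of 5, 12 and 12 with TPM scaling and 10 and 12 with median ratio scaling. The opposite counts, 0 in both comparisons, were 4 for heart above liver and 2 for kidney above liver with a pseudocount of 0.1, and 2 and 1 with TPM scaling. For heart above kidney the 3 members became 8 with a pseudocount of 0.1, 0 with a pseudocount of 5 and 6 with TPM scaling. For kidney above heart the 1 member became 3 with a pseudocount of 0.1 and 0 without Cd79b, the only member of over 2 reads per bp. The median of heart minus liver was -1.22 and -0.11 log2 units with pseudocounts of 0.1 and 5, -1.02 with TPM scaling, -0.42 with median ratio scaling, -0.39 without Cd79b and -2.24 over members with RPKM of at least 1 in a library. That of kidney minus liver was -0.90 and -0.13 with these pseudocounts, -0.65 with TPM scaling, -0.42 with median ratio scaling and -2.79 under the filter, which keeps members through the library where they are high. Of 99 comparisons of a member, 27 reached the 4-fold mark on log2(RPKM + 1) and 48 on reads without a pseudocount, which gives low genes more weight. The transcript with the highest mean RPKM changed none of these counts. The median difference of all genes with RPKM of at least 1 in a library was -0.18 log2 units between heart and liver, -0.23 between heart and kidney and 0.03 between kidney and liver, and 0, -0.06 and 0.05 with median ratio scaling. For Cd79b, kidney minus liver was -0.02 log2 units, 0.02 with median ratio scaling and 0.10 with TPM scaling. No paired analysis was possible because each tissue has 1 library and no result comes from a test. Values under about 0.1 RPKM rest on few reads.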
